A study of Homo sapiens with 15 samples.

Results

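The endoplasmic reticulum (ER) is where secreted and membrane proteins are folded, and 33 genes of its folding and stress machinery are described here across 15 RNA sequencing libraries. They were taken by name from the 19143 gene rows of the count table, and each was read in all 15 libraries. By role they fall into 9 chaperones and glycoprotein checking genes, 5 disulfide isomerases, 9 genes of ER-associated degradation, 6 stress sensors and transcription factors, and 4 genes of the translocon and the ER membrane. Their rows matched their names, and 32 of the 33 carried enough reads to be tested. DERL3, a paralogue of the degradation channel proteins DERL1 and DERL2, had 0 to 4 reads per library and was not tested.

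All libraries came from MHCC-97H, a human liver cancer line established from a hepatocellular carcinoma, with 3 libraries per group. A first round compared cells of an animal model, a 3D model and a 2D model. A second round compared heat-treated cells of the 3D model with cells of the 3D model labelled as treatment control. The study asked what a 3D environment gives these cells and how cells in it withstand heat. The labels name no host animal, no gel or scaffold, no temperature and no time of heating, and no genotype or drug beyond these, so nothing else can be said to be shared by the groups. They call the libraries biological replicates without naming separate cultures or animals, so p-values measure the spread between these libraries, which may be technical.

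Folding in the ER is watched by the membrane sensors ERN1 (IRE1), EIF2AK3 (PERK) and ATF6, and the chaperone HSPA5 (BiP) binds them when few unfolded proteins are present. Under stress, ERN1 splices the XBP1 message, ATF6 is cut to free a transcription factor, and EIF2AK3 phosphorylates EIF2S1, the alpha subunit of a translation initiation factor, which favours translation of ATF4. XBP1 and ATF6 then raise transcription of chaperones, disulfide isomerases and degradation genes, and liver cells, which secrete much protein, hold large amounts of these products. Counts per gene cannot show XBP1 splicing, ATF6 cleavage or phosphorylation.

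The promoters of many of these genes carry a short element through which ATF6 and XBP1 are known to act, so its copies are shown for the members that hold it. Windows from 250 bases before to 50 bases after each start came from RefSeq (GRCh38.p14) and were found for 30 of the 33 members, with none for DERL1, DERL3 and PDIA3. The ER stress response element (CCAAT, 9 bases of any kind, then CCACG), searched on both strands, was present in 8 of the 30 members (26.7%) and in 25 of all 27305 genes with a window (0.0916%). The sites are written 5′ to 3′ on the strand of the element, with the fixed letters in capitals.
HSPA5, chr9:125241391-125241409, minus strand: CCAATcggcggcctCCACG
XBP1, chr22:28800603-28800621, minus strand: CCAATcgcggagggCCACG
CANX, chr5:179698778-179698796, plus strand: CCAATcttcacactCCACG
HSP90B1 distal site, chr12:103930216-103930234, plus strand: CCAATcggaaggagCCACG
HSP90B1 proximal site, chr12:103930321-103930339, minus strand: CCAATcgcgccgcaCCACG
PDIA6, chr2:10812853-10812871, minus strand: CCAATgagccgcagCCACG
CALR, chr19:12938384-12938402, minus strand: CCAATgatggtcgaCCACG
CRELD2, chr22:49918554-49918572, minus strand: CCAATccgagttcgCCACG
SERP1, chr3:150546710-150546728, plus strand: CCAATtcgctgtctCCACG

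A second form of the element (ATTGG, 1 base of any kind, then CCACG) was present in 3 further members of the 30 and in 19 of all genes (0.0696%). Its copies lay 107 bases before the HERPUD1 start, 69 and 175 bases before the HYOU1 start and 178 bases before the SDF2L1 start. The core TGACGTGG, bound by XBP1, was found in 1 member, HYOU1, and in 253 of all genes (0.927%), and its HYOU1 copy overlaps the farther copy of the second form in that gene.
HERPUD1, chr16:56932025-56932035, plus strand: ATTGGgCCACG
HYOU1 both sites, chr11:119057274-119057284 and chr11:119057380-119057390, plus strand: ATTGGaCCACG
SDF2L1, chr22:21642114-21642124, minus strand: ATTGGtCCACG

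The 250 bases before the start of HSPA5 and of XBP1, the chaperone and the transcription factor that the comparisons return to most, place the element in its surroundings. In HSPA5 (chr9:125241344-125241593, minus strand) it ends 48 bases before the start, and in XBP1 (chr22:28800570-28800819, minus strand) 34 bases before it. A match is a description of letters and not a measured binding site.
HSPA5 upstream: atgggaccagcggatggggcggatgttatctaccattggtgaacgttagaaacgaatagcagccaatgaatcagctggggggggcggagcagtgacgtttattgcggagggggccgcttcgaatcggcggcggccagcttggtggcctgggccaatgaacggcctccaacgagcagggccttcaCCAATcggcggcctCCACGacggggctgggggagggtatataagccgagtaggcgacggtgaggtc
XBP1 upstream: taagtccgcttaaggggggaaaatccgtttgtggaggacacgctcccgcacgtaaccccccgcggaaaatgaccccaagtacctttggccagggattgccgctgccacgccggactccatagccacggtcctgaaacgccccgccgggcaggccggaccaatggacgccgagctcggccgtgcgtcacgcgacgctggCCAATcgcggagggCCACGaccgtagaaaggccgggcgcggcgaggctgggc

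Total counts were 12605539 to 18634295 per library, and the 33 genes took 0.615 to 1.13% of them. There were 3 libraries that stood apart: in 3D replicates 1 and 2 and in heat replicate 1, the log2 ratio of each gene to the 2D mean followed transcript GC content, with rank correlations of 0.710, 0.797 and 0.597 across genes, against -0.195 to 0.228 in the other 12. In the same 3 libraries the ratio fell with transcript length, at rank correlations of -0.462, -0.413 and -0.467, against -0.146 to 0.263 in the other 12. Values without these 3 libraries are given after the results of each comparison. Reads were 50 bases long and no step that marks the strand is described, so reads of SYVN1 and MRPL49, PDIA3 and ELL3, PDIA6 and ATP6V1C2, SEC61A1 and RUVBL1, and SERP1 with EIF2A and SELENOT, which overlap on opposite strands, cannot be told apart. The epithelial keratin KRT8 (1230 to 7920 CPM, counts scaled to a common library size) and the liver factor HNF4A (76.3 to 145 CPM) were present in every library. The hepatocyte products ALB and AFP stood at 91.8 to 286 and 5.09 to 16.4 CPM in the animal libraries, against 0.582 to 5.14 and 0.683 to 3.66 CPM in all cultured libraries. APOB and APOA1 went the other way against 2D, with 59 to 132 and 0 to 3 reads in the animal libraries against 416 to 477 and 22 to 32. GPC3 did not pass 0.275 CPM in any library.

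Levels per transcript length set the members in order. CPM here is scaled over all 15 libraries and divided by the length of the longest coding transcript in kilobases. In 2D, P4HB (protein disulfide isomerase) stood highest at 523 ± 9.46 CPM per kilobase (SD, n = 3), followed by the lectin chaperone CALR at 411 ± 3.38, the ER HSP90 protein HSP90B1 at 247 ± 13.3 and HSPA5 at 204 ± 4.0. These 4 differed by more than their spread. The sensors stood at the foot, with ATF6 at 5.93 ± 0.0936, EIF2AK3 at 2.83 ± 0.270 and ERN1 at 2.23 ± 0.0981 CPM per kilobase, and only DERL3 was lower at 0.0343 ± 0.0297. P4HB was also first in 3D (1083 ± 267), in heated cells (592 ± 312) and in their controls (644 ± 21.4), while in the animal libraries CALR (338 ± 41.4) and HSP90B1 (330.1 ± 25.2) came before it (277 ± 23.4). There CALR and HSP90B1 did not differ beyond their spread. The order depends on the transcript taken for the length: with the median length of a gene's coding transcripts, P4HB came first in the animal libraries as well (1262 CPM per kilobase), before CANX (980.4), HSP90B1 (837) and CALR (705). In 2D the order was then P4HB (2385), CANX (1229), CALR (856), HSP90B1 (625), PDIA4 (217) and HSPA5 (204), and EIF2AK3 (3.12) stood below ERN1 (3.54).

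**Figure D1:**
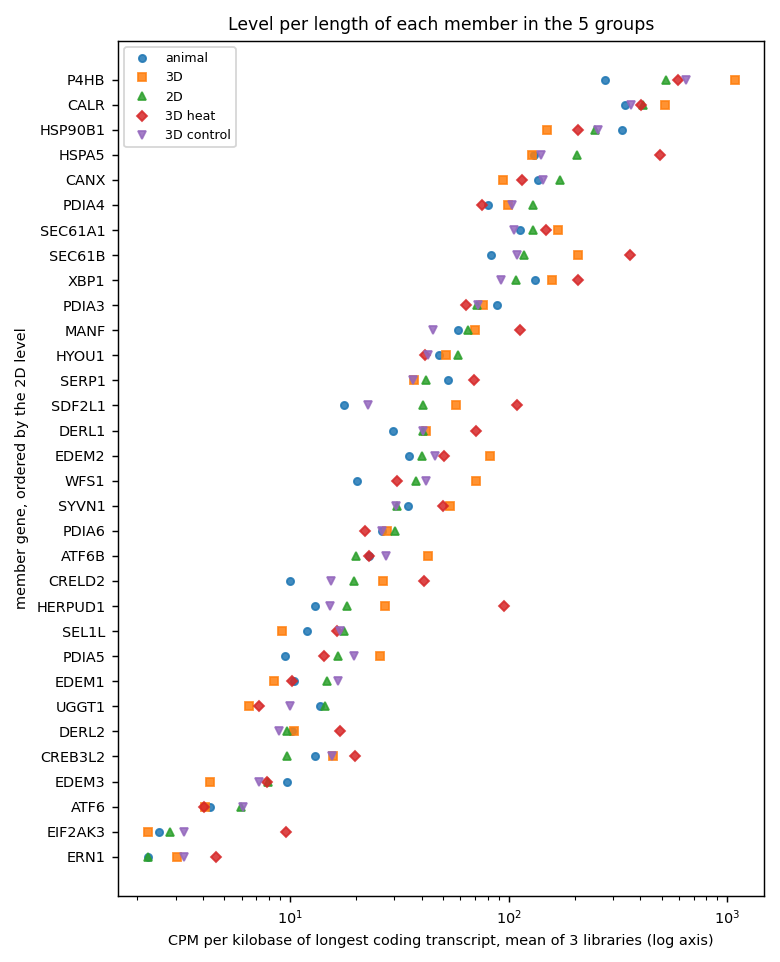
Level of each tested member per kilobase of its longest coding transcript (horizontal log axis, CPM per kilobase, scaled over all 15 libraries), with 1 symbol for the mean of the 3 libraries of each group and genes ordered by their 2D level. P4HB lies at the top in 2D (523) and the sensors ERN1 (2.23) and EIF2AK3 (2.83) at the bottom.

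In 3D against 2D, members moved in both directions: 7 of the 32 tested were higher, 3 lower and 22 not called. Those higher were the isomerases P4HB and PDIA5, the degradation genes SYVN1 and EDEM2, the factors ATF6B and XBP1, and the membrane protein WFS1. Those lower, HSPA5, CANX and UGGT1, all belong to the 9 chaperones and glycoprotein checking genes, of which none was higher. A call is an adjusted p below 0.05 in edgeR's quasi-likelihood test with Benjamini-Hochberg adjustment over all 12925 genes tested, and 32.9% of those genes were called, 20.0% higher and 12.9% lower. The members' share, 10 of 32, is near that background. Of the 11 members holding either promoter element printed above, HSPA5 and CANX were lower and XBP1 higher, and 8 were not called. The median log2 fold change of the 32 tested members was 0.07, against 0.03 over all genes. In 16 members the 3D and 2D libraries did not overlap, 9 higher and 7 lower, where 50.2% of all genes did not, 24.5% higher and 25.6% lower.

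Among the chaperones, HSPA5, which binds unfolded chains and holds the sensors inactive, measured 445, 511 and 511 CPM in the 3D libraries and 802, 819 and 790.2 CPM in the 2D libraries. Every 3D library lay below every 2D library, and the level fell 1.64-fold (log2 fold change -0.72, SE 0.17, adjusted p = 0.0122 in edgeR). UGGT1, which checks glycoproteins and sends misfolded ones back to the lectin chaperones, had 67.1, 63.8 and 72.3 CPM in 3D, against 153, 157 and 154 CPM in 2D. It was the most reduced member, 2.28-fold lower with no overlap (log2 fold change -1.19, SE 0.20, edgeR adjusted p = 0.00362). The lectin chaperone CANX had 333, 263 and 597 CPM in 3D and 696, 764 and 737 CPM in 2D. The groups did not overlap (log2 fold change -0.88, SE 0.28, edgeR adjusted p = 0.0410), but 3D replicate 3 lay close to the 2D libraries and the other 2 far below.

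The remaining 6 of this role were not called, and in most of them 3D replicate 3 parted from replicates 1 and 2. HSP90B1 had 301 and 127 CPM in 3D replicates 1 and 2 and 846 in replicate 3, against 667 to 741 in 2D. SDF2L1, a partner of the HSPA5 cycle, had 60.0 and 72.7 CPM in those replicates and 12.3 in replicate 3, against 34.5 to 36.8 in 2D. CRELD2 and MANF also had replicates 1 and 2 together above replicate 3, and overlapped with 2D. HYOU1 and CALR overlapped with 2D as well, and replicate 3 was their lowest, but replicate 1 lay nearer to it than to replicate 2.

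Of the 5 disulfide isomerases, which form and rearrange the bonds between cysteines, P4HB had 2635, 3422 and 2211 CPM in 3D and 1343, 1393 and 1377 CPM in 2D. All 3D libraries exceeded all 2D libraries, and P4HB rose 2.01-fold (log2 fold change 1.01, SE 0.20, edgeR adjusted p = 0.00756). PDIA5 had 43.0, 43.5 and 49.4 CPM in 3D against 30.5, 30.6 and 28.5 CPM in 2D, again without overlap (log2 fold change 0.60, SE 0.17, edgeR adjusted p = 0.0285). PDIA3, PDIA4 and PDIA6 were not called, with log2 fold changes of 0.06, -0.41 and -0.16.

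In ER-associated degradation, which returns misfolded proteins to the cytosol, 2 of 8 tested members were higher and none lower. SYVN1 (HRD1), the ubiquitin ligase of the pathway, had 166, 198 and 131 CPM in 3D and 97.9, 93.3 and 101 CPM in 2D, with no overlap (log2 fold change 0.76, SE 0.19, edgeR adjusted p = 0.0158). EDEM2, which trims the mannose of glycoproteins marked for degradation, had 156, 201 and 104 CPM in 3D and 82.0, 71.1 and 78.7 CPM in 2D. Its 3D libraries all lay higher (log2 fold change 0.99, SE 0.25, edgeR adjusted p = 0.0168). HERPUD1, an organiser of the SYVN1 complex, had 95.3, 76.1 and 62.9 CPM in 3D against 52.0 to 55.7 CPM in 2D, without overlap but at an adjusted p of 0.103 in edgeR. SEL1L, EDEM1 and EDEM3 had their lowest values in 3D replicate 2, at 28.0, 23.2 and 3.63 CPM, and none was called.

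Of the sensors and factors, ATF6B, a relative of ATF6, had 102, 134 and 93.9 CPM in 3D and 54.0, 50.5 and 54.0 CPM in 2D. It rose 2.08-fold with all 3D libraries above all 2D libraries (log2 fold change 1.06, SE 0.19, edgeR adjusted p = 0.00471). XBP1 had 300.4, 312 and 243 CPM in 3D and 197, 196 and 207 CPM in 2D. The groups did not overlap and the rise was 1.42-fold (log2 fold change 0.51, SE 0.17, edgeR adjusted p = 0.0455). The 3 stress sensors were not called. ATF6 had 26.8, 20.1 and 44.2 CPM in 3D and 44.1, 44.6 and 45.6 CPM in 2D, ending at a log2 fold change of -0.56 (edgeR adjusted p = 0.144). ERN1 had 25.2, 17.5 and 27.6 CPM in 3D against 17.8, 16.9 and 18.5 CPM in 2D (edgeR adjusted p = 0.254). EIF2AK3 had 9.29, 5.03 and 16.5 CPM in 3D and 12.8, 12.3 and 14.7 CPM in 2D (edgeR adjusted p = 0.500). In all 3 sensors the 3D libraries spread across the 2D values or beyond.

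Among the translocon and membrane genes, WFS1 (wolframin), an ER membrane glycoprotein, had 220.2, 362 and 175 CPM in 3D and 135, 140.0 and 138 CPM in 2D, without overlap (log2 fold change 0.88, SE 0.27, edgeR adjusted p = 0.0336). SEC61A1 and SEC61B, subunits of the protein channel, and SERP1, which stabilises new membrane proteins, were not called.

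**Figure D2:**
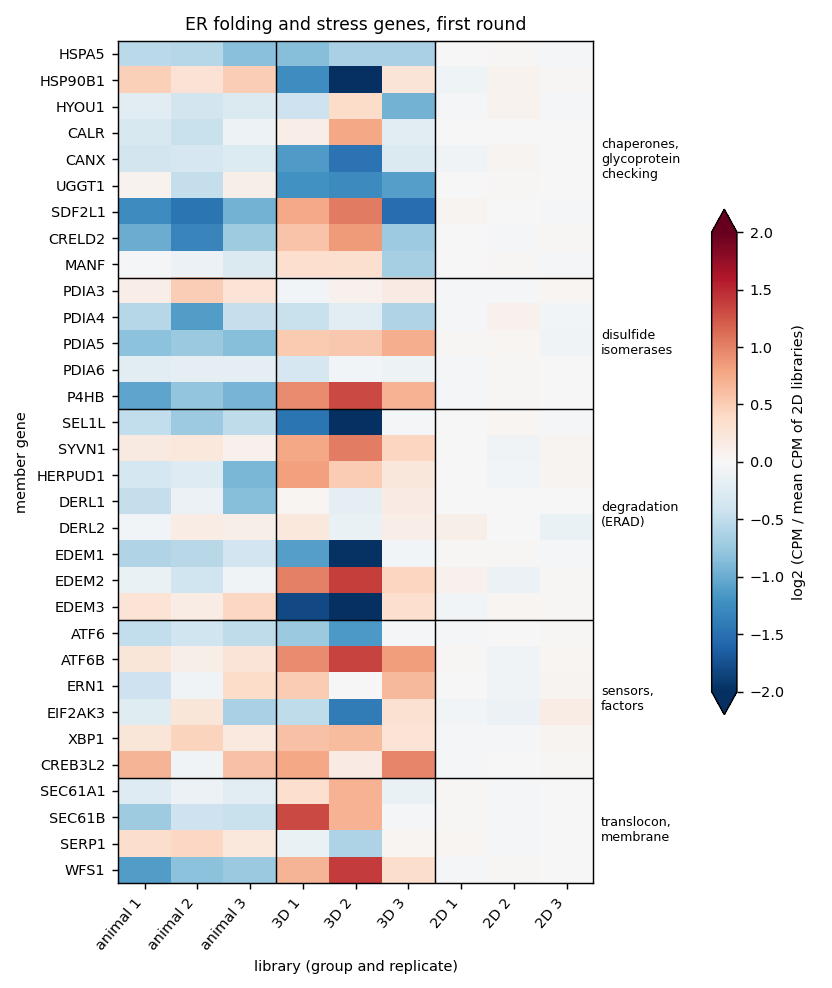
Each row is a tested member, grouped by role, and each column a first-round library; colour gives log2 of the CPM over the mean CPM of the 2D libraries, with values beyond 2 on either side shown in the end colours. HSPA5 and UGGT1 are blue in all 3 3D libraries and P4HB, PDIA5 and ATF6B red, while HSP90B1, SEL1L and EDEM3 differ between 3D replicates 1 and 2 and replicate 3.

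The 7 members that were higher had transcripts of 50.1 to 61.4% GC and the 3 that were lower 41.6 to 46.0%. The 3D replicates 1 and 2 are libraries in which levels followed GC content and fell with transcript length. When the trend of each library with GC content and transcript length was taken out as an offset, none of these 10 members was called: HSPA5 was at a log2 fold change of -0.31 (edgeR adjusted p = 0.196), UGGT1 at -0.42 (0.223), P4HB at 0.26 (0.165) and ATF6B at 0.38 (0.0642), with the sign kept in all 10. SDF2L1, CRELD2, MANF and PDIA4 were then lower, and PDIA3, HERPUD1, DERL2, CREB3L2 and SERP1 higher, 9 of 32 members where 32.5% of all genes were called, 16.0% higher and 16.5% lower. With 3D replicate 3 alone, taken to have the spread of the other groups, 7 members were higher and 7 lower, with 46.4% of all genes called, 22.9% higher and 23.6% lower. The 7 lower were all chaperones or glycoprotein checking genes: SDF2L1 (log2 fold change -1.54), UGGT1 (-1.11), HYOU1 (-0.96), CRELD2 (-0.73), MANF (-0.67), HSPA5 (-0.66) and CANX (-0.31). ATF6B (0.82), PDIA5 (0.71), P4HB (0.68), SYVN1 (0.42) and EDEM2 (0.41) were higher as before, joined by CREB3L2 (0.96) and EDEM3 (0.32). XBP1 (0.27, adjusted p = 0.0773 in edgeR) and WFS1 (0.34, 0.0685) were not called.

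**Figure D3:**
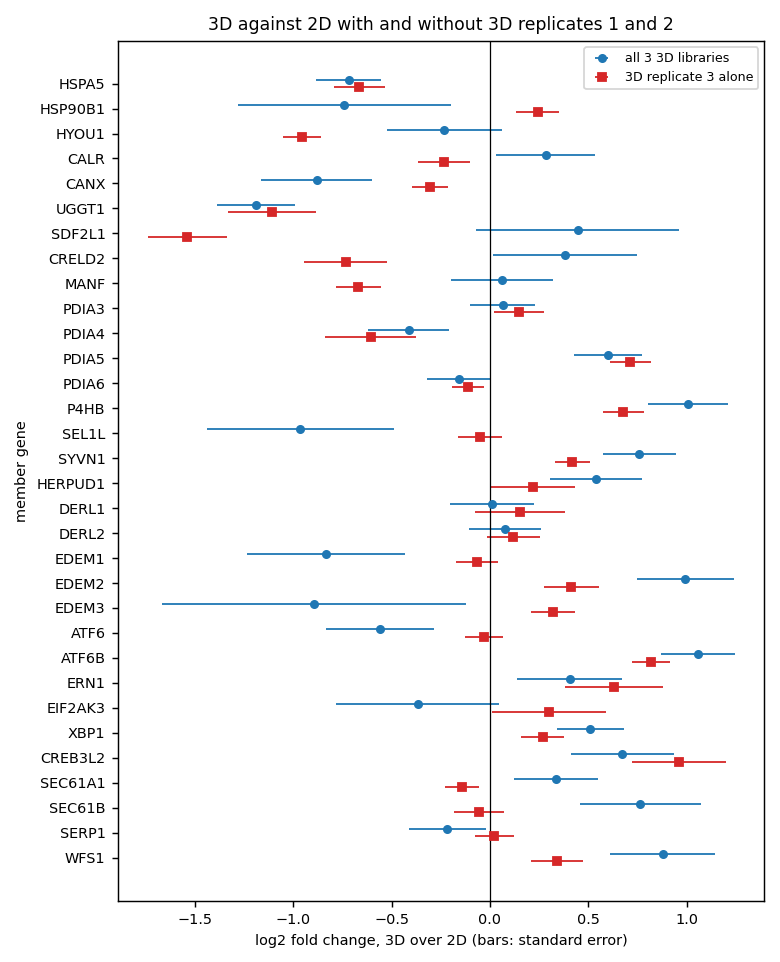
Log2 fold change of 3D over 2D with its standard error (horizontal) for each tested member, from all 3 3D libraries (circles) and from 3D replicate 3 alone (squares). HSPA5 and UGGT1 lie left of 0 in both fits and P4HB, PDIA5 and ATF6B right of it, while SDF2L1 lies at 0.45 with all libraries and at -1.54 with replicate 3 alone.

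In the animal libraries, P4HB and PDIA5 were called lower than in both cultures, HSPA5 was called lower against 2D alone, and the other calls were made against 3D alone. Of the members called against 3D alone, WFS1, SEC61B, HERPUD1, SDF2L1 and CRELD2 also lay below every 2D library without passing the test there. Against 2D, none of the 32 tested members was higher and 3 were lower, HSPA5, P4HB and PDIA5, with 12.0% of all genes called, 7.78% higher and 4.25% lower. Against 3D, 1 member was higher and 10 lower, with 41.5% of all genes called, 18.6% higher and 22.9% lower. The median log2 fold change of the members was -0.24 against 2D, where all genes had 0.03, and -0.22 against 3D, where all genes had 0.10. Without overlap, 7 members lay above 2D and 19 below, with 66.4% of all genes in either direction, 33.8% above and 32.6% below. Against 3D, 3 members lay above without overlap and 8 below, with 50.2% of all genes in either direction, 27.9% above and 22.3% below. Both comparisons use the same animal libraries, and the 3D and 2D libraries also enter the comparison above.

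P4HB had 664, 793 and 721 CPM in the animal libraries, against 2211 to 3422 CPM in 3D and 1343 to 1393 CPM in 2D. No animal library reached the lowest library of either culture, and P4HB fell 3.80-fold against 3D (log2 fold change -1.93, SE 0.21, edgeR adjusted p = 0.000557) and 1.89-fold against 2D (-0.92, SE 0.20, adjusted p = 0.0200). PDIA5 had 16.9, 18.0 and 16.6 CPM in the animal libraries, below its 43.0 to 49.4 CPM in 3D and 28.5 to 30.6 CPM in 2D. Its log2 fold changes were -1.40 against 3D (SE 0.18, edgeR adjusted p = 0.000935) and -0.80 against 2D (SE 0.17, adjusted p = 0.0185). HSPA5 had 555, 542 and 449 CPM in the animal libraries, which overlapped the 3D libraries (log2 fold change 0.08, edgeR adjusted p = 0.716) and lay below every 2D library (-0.64, SE 0.17, adjusted p = 0.0355).

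WFS1 had 63.4, 77.7 and 81.8 CPM in the animal libraries, below all 3D and all 2D libraries. It fell 3.40-fold against 3D (log2 fold change -1.76, SE 0.27, edgeR adjusted p = 0.00196), while against 2D it was not called (-0.89, SE 0.27, adjusted p = 0.0633). UGGT1, with 162, 111 and 167 CPM in the animal libraries against 63.8 to 72.3 CPM in 3D, was the 1 member higher than in 3D (log2 fold change 1.12, SE 0.20, edgeR adjusted p = 0.00318), and it overlapped with 2D. The chaperone cofactors SDF2L1 (14.7, 12.9 and 18.4 CPM) and CRELD2 (15.8, 12.5 and 19.1 CPM) were called lower than in 3D, at log2 fold changes of -1.65 (edgeR adjusted p = 0.0347) and -1.36 (0.0192). In both genes the animal libraries lay below 3D replicates 1 and 2, while 3D replicate 3, at 12.3 CPM for SDF2L1, lay below all of them and, at 18.9 CPM for CRELD2, within their range.

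In degradation, HERPUD1 had 42.0, 45.0 and 28.6 CPM in the animal libraries against 62.9 to 95.3 CPM in 3D, a 2.03-fold fall without overlap (log2 fold change -1.02, SE 0.23, edgeR adjusted p = 0.00979). EDEM2 had 70.2, 58.9 and 73.8 CPM, below its 104 to 201 CPM in 3D (log2 fold change -1.18, SE 0.25, edgeR adjusted p = 0.00664). SYVN1 had 111, 112 and 104 CPM, below its 131 to 198 CPM in 3D (log2 fold change -0.60, SE 0.19, edgeR adjusted p = 0.0307). All 3 genes thus lay in a range apart from 3D, and none was called against 2D.

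The channel subunit SEC61B had 42.4, 52.5 and 51.4 CPM in the animal libraries and 67.5 to 175 CPM in 3D (log2 fold change -1.28, SE 0.31, edgeR adjusted p = 0.0122). ATF6B had 62.7, 57.0 and 62.9 CPM, below the 3D range of 93.9 to 134 CPM (log2 fold change -0.85, SE 0.19, edgeR adjusted p = 0.00765) and above all 2D libraries, where it was not called. XBP1 had 237, 271 and 228 CPM in the animal libraries, overlapping 3D and above every 2D library without being called (edgeR adjusted p = 0.315 and 0.310). ATF6 had 32.0, 34.1 and 31.5 CPM, ERN1 13.3, 16.9 and 22.9 CPM and EIF2AK3 11.2, 15.7 and 8.49 CPM in the animal libraries. None of the 3 sensors was called against either culture, with edgeR adjusted p-values of 0.230 to 0.779 against 3D and 0.338 to 0.998 against 2D.

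Beside these values, marker genes of other cells moved in the animal libraries. Of 9 liver markers tested, 2 were higher and 1 lower than in 2D, and 2 were higher and 2 lower than in 3D. ALB (log2 fold change 6.11 against 2D and 5.96 against 3D) and AFP (2.21 and 2.69) were higher. APOB had 59 to 132 reads in the animal libraries against 416 to 477 in 2D, and APOA1 0 to 3 against 22 to 32. The 12 fibroblast and pericyte markers summed to 177 to 471 CPM in the animal libraries, 52.3 to 183 in 3D and 125 to 134 in 2D. Of 7 tested, 5 were higher than in 2D and 1 was lower. Among the higher was COL1A1 at 60.3 to 247 CPM against 3.93 to 4.23. COL6A3 went the other way, with 42 to 195 reads in the animal libraries against 1124 to 1289 in 2D. The 6 endothelial markers summed to 5.85 to 16.8 CPM in the animal libraries, 0.807 to 1.89 in 3D and 1.43 to 1.72 in 2D. Both tested ones, KDR (4.27 to 15.3 CPM in the animal libraries, 0.955 to 1.18 in 2D) and TEK, were higher than in 2D and in 3D, and EMCN was at 0 in every first-round library. The 9 leukocyte markers summed to 167 to 220.2 CPM in the animal libraries, 392 to 475 in 3D and 104 to 110.1 in 2D, mostly CD68. Of the 6 tested, 4 were higher than in 2D (LYZ, CD74, CD163 and ITGAM) and 3 higher than in 3D (LYZ, CD74 and CD163), where CD68 was lower. LYZ had 2.47 to 9.29 CPM in the animal libraries against at most 0.0536 in 2D, and CD74 had 18.6 to 24.3 against 1.27 to 1.94. TYROBP was at 0 in the animal libraries and at or near 0 in the other groups. For plasma cells, which are rich in this machinery, the 7 markers summed to 112 to 124 CPM in the animal libraries, against 146 to 379.6 in 3D and 176 to 178 in 2D. Nearly all of that was SDC1, which epithelial cells also express, and JCHAIN was at 0 in the animal libraries. The part of these cells in the values was not tested, and any removal of host reads is not stated. In bulk RNA, fewer cells of a type and less RNA per cell cannot be told apart.

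The 2 comparisons differ in how they depend on single libraries. Against 2D, the spread is estimated over all 3 first-round groups, and leaving out 1 library gave 0 lower members for 5 of the 6 libraries of the pair and 2 for animal replicate 2. When only the animal and 2D libraries were fitted, 6 members were higher and 18 lower, with 57.4% of all genes called, 29.5% higher and 27.9% lower. After the GC and length offset 13 were lower and none higher, with 31.6% of all genes called, 12.6% higher and 19.0% lower. Against 3D, PDIA5, P4HB, HERPUD1, EDEM2 and WFS1 were lower under all 16 alternatives. The calls of UGGT1, SDF2L1, CRELD2, SYVN1 and ATF6B were lost after the GC and length offset, and that of SEC61B without animal replicate 1 (edgeR adjusted p = 0.0505). Without 3D replicates 1 and 2, 11 members were lower and 4 higher (47.1% of all genes called, 24.6% higher and 22.5% lower), the higher ones being UGGT1 (log2 fold change 1.02), HYOU1 (0.64), MANF (0.51) and SERP1 (0.28). SDF2L1 was then at 0.32 (edgeR adjusted p = 0.217). Of the 11 members holding a promoter element, SDF2L1, CRELD2 and HERPUD1 were the 3 called against 3D with all libraries, all lower. Of all genes in that fit, 22.9% were called lower and 18.6% higher, so the 3 of 11 lie near the background.

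In the second round, heat left 2 libraries with high HSPA5, HERPUD1 and XBP1 and 1 near the controls, and no member was called. In edgeR's test 3 of 12627 genes were called (0.0238%, with 0.00792% higher and 0.0158% lower), 0 of them members, with 2628 genes and 5 members at an unadjusted p below 0.05. In DESeq2, 12.2% of genes were called (6.74% higher and 5.46% lower), with 2 members higher, HERPUD1 (adjusted p = 0.00456) and HSPA5 (adjusted p = 0.0283). The members' median log2 fold change was 0.15 and that of all genes 0.10. The cytosolic heat-shock gene HSPA1A, whose near-identical copy HSPA1B can share its reads, had 24668, 1309 and 15693 CPM in heat replicates 1, 2 and 3 and 344, 352 and 366 CPM in the controls. Every heated library exceeded every control in HSPA1A, replicate 2 by the least.

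HERPUD1 had 548, 50.0 and 245 CPM in heat replicates 1, 2 and 3, against 47.4, 41.9 and 45.2 CPM in the controls. All heated libraries lay above all controls, replicate 2 barely so (log2 fold change 2.65, SE 0.78, edgeR adjusted p = 0.143). HSPA5 had 2510.3, 481 and 2793 CPM in the heated libraries and 532, 558 and 563 CPM in the controls. Replicate 2 lay below every control, so the groups overlapped (log2 fold change 1.81, SE 0.65, edgeR adjusted p = 0.192). EIF2AK3 had 25.1, 21.0 and 87.9 CPM in the heated libraries and 16.4, 15.3 and 13.9 CPM in the controls. Its groups did not overlap, with replicate 3 far above the rest (log2 fold change 1.55, SE 0.57, edgeR adjusted p = 0.200).

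XBP1 had 644, 148 and 366 CPM in the heated libraries and 171, 170.2 and 173 CPM in the controls, with replicate 2 again below the controls (log2 fold change 1.17, SE 0.52, edgeR adjusted p = 0.254). ERN1 had 44.2, 22.1 and 42.8 CPM with heat against 26.8, 25.6 and 24.8 CPM, with replicate 2 below the controls here too (edgeR adjusted p = 0.394). ATF6 went the other way, with 27.0, 34.1 and 30.1 CPM in the heated libraries against 48.0, 47.2 and 41.8 CPM in the controls. Its groups did not overlap (log2 fold change -0.59, SE 0.23, edgeR adjusted p = 0.215). Over all members, 4 lay without overlap above the controls, SYVN1, HERPUD1, EIF2AK3 and CREB3L2, and 5 below, PDIA4, PDIA5, EDEM1, ATF6 and ATF6B. Of all genes, 36.6% did so, 17.7% above and 18.9% below.

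**Figure D4:**
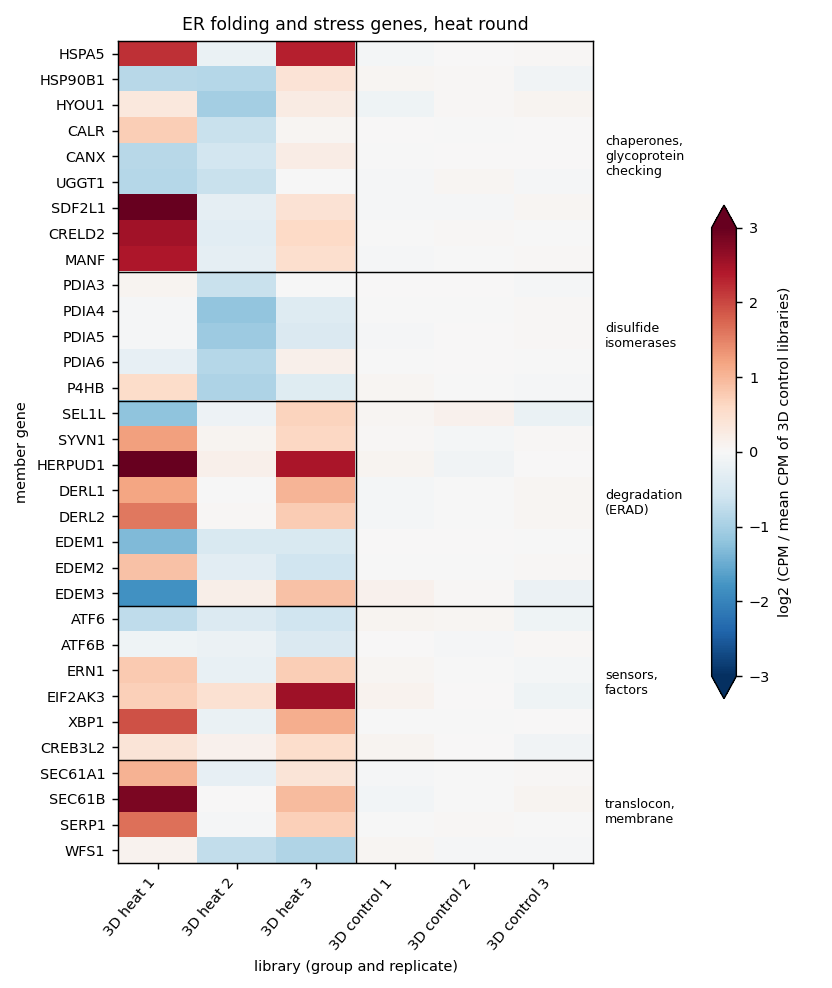
Each row is a tested member, grouped by role, and each column a second-round library; colour gives log2 of the CPM over the mean CPM of the 3D controls, with values beyond 3 on either side shown in the end colours. HSPA5, HERPUD1 and XBP1 are red in heat replicates 1 and 3 and near or below the controls in heat replicate 2, and ATF6 is blue in all 3.

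Heat replicate 1 is the heated library whose levels followed GC content and fell with transcript length. In it SDF2L1 (242 CPM), CRELD2 (139), MANF (277) and SEC61B (451) reached far higher than in replicates 2 and 3, where they were at 16.2 and 26.4, 19.6 and 36.9, 43.1 and 73.6, and 63.9 and 123 CPM. Their longest coding transcripts measured 865, 1577, 1153 and 587 bases, with 65.5, 60.7, 54.4 and 47.7% GC. The part of either property in these values was not tested. Without heat replicate 1, the log2 fold change of HSPA5 was 1.57 (edgeR adjusted p = 0.112), that of HERPUD1 1.71 (0.0756), that of XBP1 0.58 (0.245) and that of EIF2AK3 1.83 (0.0535). None of these 4 was called, and 6 members were lower, with 28.8% of all genes called (14.0% higher and 14.8% lower): WFS1 (-0.81), PDIA5 (-0.73), P4HB (-0.62), ATF6 (-0.51), EDEM1 (-0.46) and EDEM2 (-0.45). Without heat replicate 2, 3 members were higher and none lower, with 8.13% of all genes called (4.55% higher and 3.58% lower): HERPUD1 (3.13, edgeR adjusted p = 0.0291), HSPA5 (2.25, adjusted p = 0.0267) and DERL1 (1.09, adjusted p = 0.0438). No member was called without heat replicate 3 or without any control library. After the offset for GC content and length 0 members were called, with 10.9% of all genes called, 5.39% higher and 5.55% lower.

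The first-round 3D libraries and the second-round controls were both cells of the 3D model without heat treatment in their labels. Only the second are labelled a treatment control, and round and group cannot be told apart between them. On the scale of all 15 libraries, HSPA5 had 457 to 532 CPM in 3D and 532 to 563 CPM in the 3D controls, against 783 to 815 CPM in 2D. UGGT1 had 66.5 to 71.5 CPM in 3D and 104 to 111 CPM in the controls, against 152 to 156 CPM in 2D. P4HB had 2187 to 3564 CPM in 3D and 1637 to 1740 CPM in the controls, against 1336 to 1385 CPM in 2D. In these 3 genes the controls lay on the same side of 2D as the 3D libraries. XBP1 (170.1 to 173 CPM) and HERPUD1 (41.8 to 47.3 CPM) did not: in the controls both lay below 2D (195 to 206 and 51.7 to 55.3 CPM), whereas in 3D both lay above it (240.0 to 325 and 62.3 to 97.9 CPM).

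**Figure D5:**
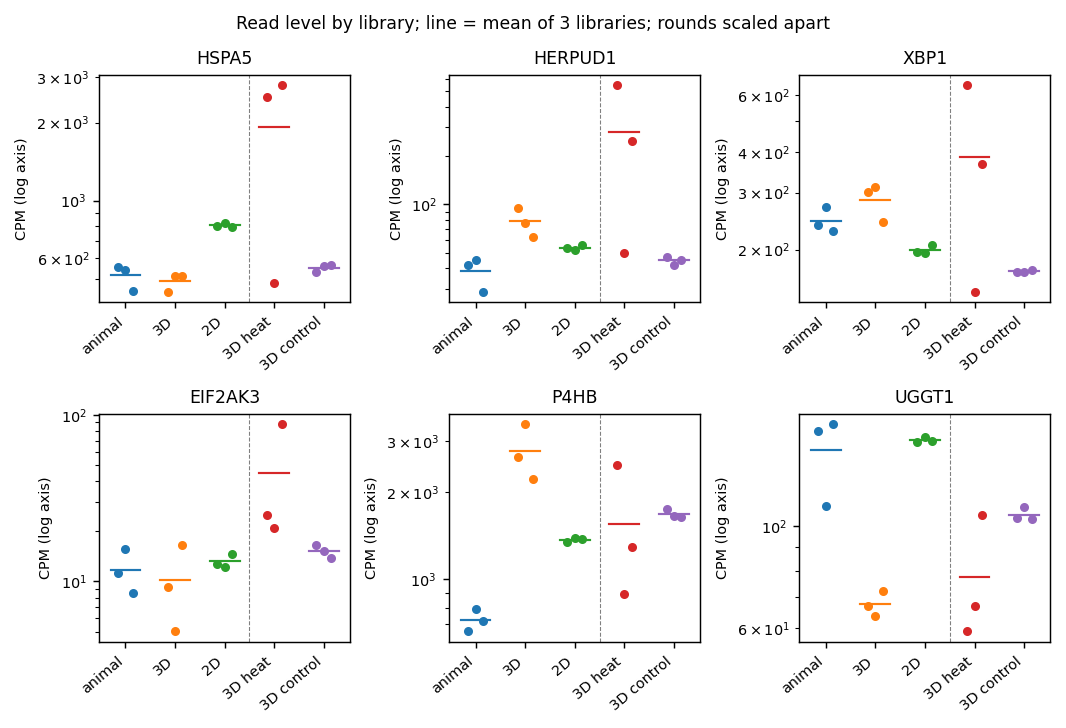
CPM (vertical log axis) of 6 members in every library, each round scaled apart, with a dashed line between rounds; each point is 1 library and each short line the mean of 3. HSPA5 is high in 2 of the 3 heated libraries (2510.3 and 2793 CPM) and at 481 CPM in the other, P4HB is lowest in the animal libraries and UGGT1 lowest in 3D in the first round.

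Other genes of the same pathways were read from lists chosen with earlier results known. In 3D against 2D, 20.0% of all genes were called higher and 12.9% lower. A list of 7 further genes held CREB3, CREB3L1, CREB3L3, NFE2L1, MBTPS1, MBTPS2 and TRAF2. Of these, 4 were higher and none lower, led by CREB3L1 (39.2 ± 16.5 CPM in 3D, 8.17 ± 0.779 in 2D, log2 fold change 2.26, edgeR adjusted p = 0.00630). Of 11 genes of the PERK and ATF4 arm, 3 were higher, NUPR1 (log2 fold change 2.03), TRIB3 (1.48) and PPP1R15A (0.97), and EIF2S1, which EIF2AK3 phosphorylates, was lower (-1.20). ATF4 and the stress factor DDIT3 (CHOP) were not called, at 0.42 and 0.54, nor was the HSPA5 cochaperone DNAJB9, at -0.75. Of 21 tested folding genes 4 were higher, led by the HSPA5 exchange factor SIL1 (1.46), and DNAJB11 was lower (-0.91). Of 17 tested degradation genes 2 were higher, led by the mannosidase MAN1B1 (1.57), and 2 lower, led by UBE2G2 (-0.80). Of 22 translocation and glycosylation genes 5 were higher, led by SSR4 (1.68), and STT3B was lower (-1.25). The shares called higher in the folding list and in the translocation and glycosylation list lie near that of all genes. SSR4 had 575 and 501 CPM in 3D replicates 1 and 2 and 164 in replicate 3, against 126 to 134 in 2D.

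With 3D replicate 3 alone, SSR4 was at a log2 fold change of 0.33 and not called (edgeR adjusted p = 0.0647), CREB3L1 was at 1.29, TRIB3 at 0.66, PPP1R15A at 0.76, SIL1 at 0.80, MAN1B1 at 1.13, NUPR1 at 2.03, STT3B at -0.45, DNAJB11 at -0.59, UBE2G2 at -0.38 and EIF2S1 at -0.96, all of them called but SSR4. DDIT3 (0.66) and ATF4 (0.40) were then called higher. The calls of this fit borrow the spread of the other groups, since 1 library shows no spread of its own. Counts per list are not given for it, and those above come from all libraries. After the GC and length offset, EIF2S1 was at 0.033 (edgeR adjusted p = 0.946), SSR4 at 0.40 (0.170) and PPP1R15A at 0.21 (0.473), none of them called.

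In the animal libraries against 3D, 18.6% of all genes were called higher and 22.9% lower. Of the 11 genes of the PERK and ATF4 arm 6 were lower, led by NUPR1 (log2 fold change -3.00), SESN2 (-2.36) and TRIB3 (-1.81), with DDIT3 also lower (-1.27) and EIF2S1 higher (1.10). ATF4 was at -0.13 and not called. Of the list of 7 genes that holds CREB3L1, 3 were lower, led by that gene (-1.54). Of the 22 translocation and glycosylation genes 5 were lower, near the share of all genes, led by SSR4 (-2.25). Of the folding genes 3 were higher, led by DNAJC10 (1.82), and 2 lower, led by SIL1 (-1.67); of the degradation genes 2 were higher, led by UBE2G2 (1.69), and 4 lower, led by MAN1B1 (-2.12). With 3D replicate 3 alone, CREB3L1 was at -0.59 and not called (edgeR adjusted p = 0.271), while SSR4 (-0.93), TRIB3 (-1.02), SESN2 (-1.76), NUPR1 (-3.02), DDIT3 (-1.41), SIL1 (-1.03) and MAN1B1 (-1.69) were lower and EIF2S1 (0.84), DNAJC10 (0.77) and UBE2G2 (1.26) higher. After the offset EIF2S1 was at -0.39 and CREB3L1 at -0.58, neither called. Against 2D, where 7.78% of all genes were called higher and 4.25% lower, 6 genes of these 5 lists were called in all. Higher were 2 folding genes, led by FKBP11 (1.98), and UBE2G2 (0.89), and lower were 2 degradation genes, led by NPLOC4 (-1.22), and SESN2 (-2.22). The levels of HSPA1A did not pass the test in any first-round comparison, with log2 fold changes of 0.02 to 0.19, and those of HSPA1B lay at -0.05 to 0.19. After the offset, both were called higher in animal against 3D, HSPA1A at 0.93 (edgeR adjusted p = 0.0193) and HSPA1B at 0.78 (0.0451). In 3D against 2D the offset put HSPA1A at -0.77, not called (edgeR adjusted p = 0.0509).

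With all libraries of the heat comparison, none of the genes of these lists was called. DNAJB9 had 97.7, 32.1 and 153 CPM in heat replicates 1, 2 and 3 against 27.8 to 28.6 CPM in the controls (log2 fold change 1.74, edgeR adjusted p = 0.152). DDIT3 had 239, 52.2 and 61.5 CPM with heat against 35.2 to 44.4 CPM (log2 fold change 1.54, edgeR adjusted p = 0.224). ATF4 had 467, 195 and 272 CPM with heat against 175 to 181 CPM (log2 fold change 0.80, edgeR adjusted p = 0.264). In these 3 genes every heated library lay above every control, and replicate 2 was the lowest of the heated ones. Without heat replicate 1, DNAJB9 was at 1.71, DDIT3 at 0.48 and ATF4 at 0.38, none of them called. Without heat replicate 2, DNAJB9 was called higher (2.14, edgeR adjusted p = 0.0271), while DDIT3 (1.88) and ATF4 (1.03) were not called. Other list genes were called in that fit, among them PPP1R15A (2.95) and ATF3 (2.32) higher and UBE2G2 (-1.38) lower. Of all genes, 4.55% were called higher there and 3.58% lower. In HSPA1A and HSPA1B the log2 fold changes with all libraries were 5.29 and 5.36, with edgeR adjusted p-values of 0.0976 and 0.0952. Without heat replicate 2 they were 5.82 and 5.88, both called (edgeR adjusted p = 0.0243 and 0.0242).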

How the data were processed

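MHCC-97H RNA was sequenced as single-end reads of 50 bases, per the labels' protocols. The authors deposited a table of raw counts, 1 row per gene symbol. The submitters' processing notes list HISAT2, with no version, and hg19. How reads were counted, the annotation and strand setting are not given in the sources used here. Of 19143 rows, 1443 hold 0 in every library, and 27 with a date for a symbol (0.168% of counts) are not named.

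Counts were tested in R 4.3.3 with edgeR 4.0.16 (filterByExpr, TMM, robust quasi-likelihood, group as the only term) on the 9 first-round and, apart, the 6 second-round libraries. CPM were scaled by TMM within a round unless stated. Adjusted p-values cover all 12925 and 12627 genes tested. The code was tested on simulated data. The members and lists were chosen with earlier results of these data known, and MARCHF6 is not analysed here.

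Values in every library are given for called members whose groups do not overlap, for members of smallest p up to 4, and for HSPA5, XBP1, ATF6, ERN1 and EIF2AK3. Of other lists, the most changed called gene per direction is named, and up to 3 for the PERK and ATF4 arm, with DDIT3, ATF4, DNAJB9, HSPA1A and HSPA1B. Alternatives were DESeq2 1.42.0, scaling by median ratios or upper quartiles, no filter on low counts or at least 10 reads, 2-group fits, a replicate block, a GC and length offset (splines with 5 degrees of freedom, GENCODE 29 transcripts), leaving out each library, and leaving out 3D replicates 1 and 2. Replicates were not duplicates of each other, but groups differed much in spread. Chi-square per degree of freedom between replicates was 2.55 to 3.17 in 2D and 2.85 to 8.03 in the 3D controls. It was 18.0 to 33.3 in the animal group, 72.8 to 455 in 3D and 133 to 530 with heat. The fit of each round shares its estimate of spread over such unlike groups, which limits its p-values. Depth was 12605539 to 18634295 counts per library.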

Additional observations from a re-analysis of the deposited data

How the results depend on the processing

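Counts of members called moved with the libraries and the spread estimate more than with scaling. In 3D against 2D, leaving out 1 library gave 2 to 14 higher members, 1 to 10 lower, 1795 to 9493 called genes and member medians of 0.037 to 0.15. The highest counts came without 3D replicate 3, and without 2D replicate 1, 2 or 3 the counts were 2 higher and 1 lower. In animal against 2D the same gave 0 higher, 0 to 2 lower, 652 to 1154 genes and medians of -0.28 to -0.24. In animal against 3D it gave 1 to 8 higher, 6 to 14 lower, 3361 to 10132 genes and medians of -0.32 to -0.16, and with heat 0 to 3 higher, 0 to 6 lower, 0 to 3691 genes and medians of 0.10 to 0.37. Without 3D replicates 1 and 2, the counts were 7 higher, 7 lower and 6316 genes against 2D, and 4 higher, 11 lower, 6405 genes and a median of -0.18 for animal against 3D.

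Fits of only the 2 groups gave 2 higher, 1 lower and 2493 genes for 3D against 2D, 6 higher, 18 lower and 7289 genes for animal against 2D, and 2746 genes with a median of -0.29 for animal against 3D. DESeq2 gave medians of 0.16, -0.26 and -0.33 in the first-round order just used, with 5 lower members and 2437 genes for animal against 2D, 2 higher for animal against 3D, and 2 higher and 1541 genes with heat. Median-ratio scaling gave the medians 0.16, -0.26 and -0.33 and 1 gene with heat. Upper-quartile scaling gave -0.16 for animal against 2D, and -0.11 with 2 higher for animal against 3D. No filter gave -0.30 for animal against 2D. The median of all genes in animal against 3D was 0.10, and 0.00 and 0.21 under median-ratio and upper-quartile scaling, and with heat 0.10, and -0.02 under upper-quartile scaling. The offset for GC content and length gave 13 lower, 4081 genes and a median of -0.44 for animal against 2D, a median of -0.38 for animal against 3D, and 1382 genes with heat. It put 49.3% of the calls of 3D against 2D on the higher side, against 60.9% without it, and 39.9% against 64.7% for animal against 2D.

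Same-numbered libraries had r of -0.283 to 0.218 across genes, and libraries of different numbers -0.309 to 0.368. With 3 libraries per group this cannot decide whether the numbers mark a pairing. A replicate block gave 4 higher for 3D against 2D, 1 lower and 1031 genes for animal against 2D, and 30 genes with heat. With the offset, the block gave 4 higher for 3D against 2D, 14 lower, 3448 genes and a median of -0.44 for animal against 2D, 0 higher and a median of -0.37 for animal against 3D, and 2 higher (HERPUD1 and EIF2AK3) and 1101 genes with heat.

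Among genes called in the main fit or in the alternative, signs turned in these cases, and the cause was not tested. Turns of genes called in neither fit are not listed. The sensor ATF6 in 3D against 2D is such a gene, at 0.45 under the offset (edgeR adjusted p = 0.0663). In 3D against 2D, under the offset, the block with the offset, and without 3D replicates 1 and 2, SDF2L1 had -1.31, -1.35 and -1.54, CRELD2 -0.83, -0.82 and -0.73, and MANF -0.83, -0.83 and -0.67. EDEM3 had 0.32 without those replicates, SERP1 0.49 and EIF2S1 0.033 under the offset, and HSPA1A -0.81 under the block with the offset. In animal against 3D, the offset gave CANX -0.44, MANF 0.34, SEL1L -0.75, SYVN1 0.093, DERL2 -1.50, ATF6 -1.05, EIF2S1 -0.39 and HSPA1B 0.78. The block with the offset gave SDF2L1 0.040, SEL1L -0.76, SYVN1 0.10, DERL2 -1.39, ATF6 -1.03, EIF2S1 -0.31 and HSPA1B 0.78. Without 3D replicates 1 and 2, HYOU1 had 0.64, SDF2L1 0.32, MANF 0.51, SEL1L -0.54, EDEM1 -0.46 and ATF6 -0.45. With heat, leaving out 1 library gave EDEM2 values of -0.45 (heat replicate 1) to 0.40 (heat replicate 3).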
